A study of Drosophila melanogaster with 12 samples.

Results

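Stellate is a family of near-identical repeat genes of Drosophila melanogaster, followed here in guts of males with and without mutant alleles of Hinfp. Members were taken by symbol: every row whose FlyBase symbol begins with Ste: or SteXh: was used. These were 13 of 16524 rows in the pharate adult gene table and 2 of 15651 rows in the adult gene table. The family itself was chosen by measured values, its higher counts in mutant than in control pharate libraries, so those values are a description and carry no test.

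Stellate encodes a protein that resembles the beta subunit of casein kinase 2. In the male germline its transcripts are silenced by piRNAs, small RNAs bound by Piwi-clade proteins, and most of these piRNAs derive from the Y-linked Suppressor of Stellate repeats, Su(Ste), which share sequence with Stellate. Where this silencing is lost in spermatocytes, Stellate protein accumulates as crystals and male fertility falls. The gut is not a tissue for which Stellate is known.

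All flies were males cultured at 25 °C, and each sample held about 50 guts. The pharate set used guts with their Malpighian tubules, the excretory organs attached to the gut, from adults not yet out of the pupal case. It held the deletion allele Hinfp2 (DelMut), the point allele Hinfp3 (PointMut), and the control strains FRT19A and W1118, each with 1 library titled SE and 1 titled PE. The adult set used intestines, with 1 library each of Hinfp2 with tub-Gal4 and UAS-Hinfp-HA, of Hinfp2 with tub-Gal4 and UAS-His1-HA, of Hinfp2 alone, and of FRT19A. The tub-Gal4 driver is active in most tissues, so the rescues were not limited to the gut. Hinfp is X-linked and the labelled genotypes carry a Y chromosome; copy numbers of Stellate and Su(Ste) were not analysed here. Ages of 8 to 9 days for mutants and rescues and 5 to 6 days for controls are given for pharate and adult flies together, so what they mean for pharate adults is not clear, and age and genotype cannot be told apart. The labels do not say whether the SE and PE libraries of a group are separate cultures; p-values cover only the spread between libraries, and that spread may be technical.

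Total gene counts ranged from 21924226 to 28740669 in pharate libraries and from 17991664 to 20271512 in adult libraries. Hinfp itself had 160 and 124 counts in DelMut, 218 and 220 in PointMut, 270 and 363 in FRT19A and 373 and 406 in W1118 (SE first, PE second). In CPM, counts scaled to the library's total gene count, this was 7.50 ± 1.77 CPM in mutants and 13.0 ± 2.58 CPM in controls (SD, n = 4 each), and the lowest control lay just under the highest mutant. Libraries also differed in male tissue. The sum of 10 accessory gland genes was 1.48 to 304.1 CPM in mutants and 0.905 to 504.7 CPM in controls. It was lowest in the DelMut SE library and both FRT19A libraries. Copies of Stellate share reads, and how reads matching several places were counted is not given in the sources used here, so single copies are uncertain and sums are given beside them.

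SteXh:CG42398 (FBgn0259817) was the member with the most RNA in the mutants and nearly none in the controls. The annotation places it on the unplaced scaffold 211000022279188, bases 1449 to 2180, plus strand, BDGP6, as a protein-coding gene with 3 exons. It had 364 and 402 counts in DelMut and 460 and 466 counts in PointMut, against 5 and 2 counts in FRT19A and 2 and 0 counts in W1118 (SE first, PE second). The groups did not overlap: the lowest mutant library stood far above the highest control library. SteXh:CG42398 averaged 17.7 ± 2.26 CPM in mutants and 0.0801 ± 0.0715 CPM in controls (SD, n = 4 each). The mutant libraries were close to one another, at 14.6 to 20.0 CPM. The ratio of pooled counts, scaled to depth, was 214.9 with a 95% interval of 113.0 to 470.9 for counting error only. In a bulk library, fewer cells of a type and less RNA per cell cannot be told apart, and this holds for every level given here.

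**Figure D1:**
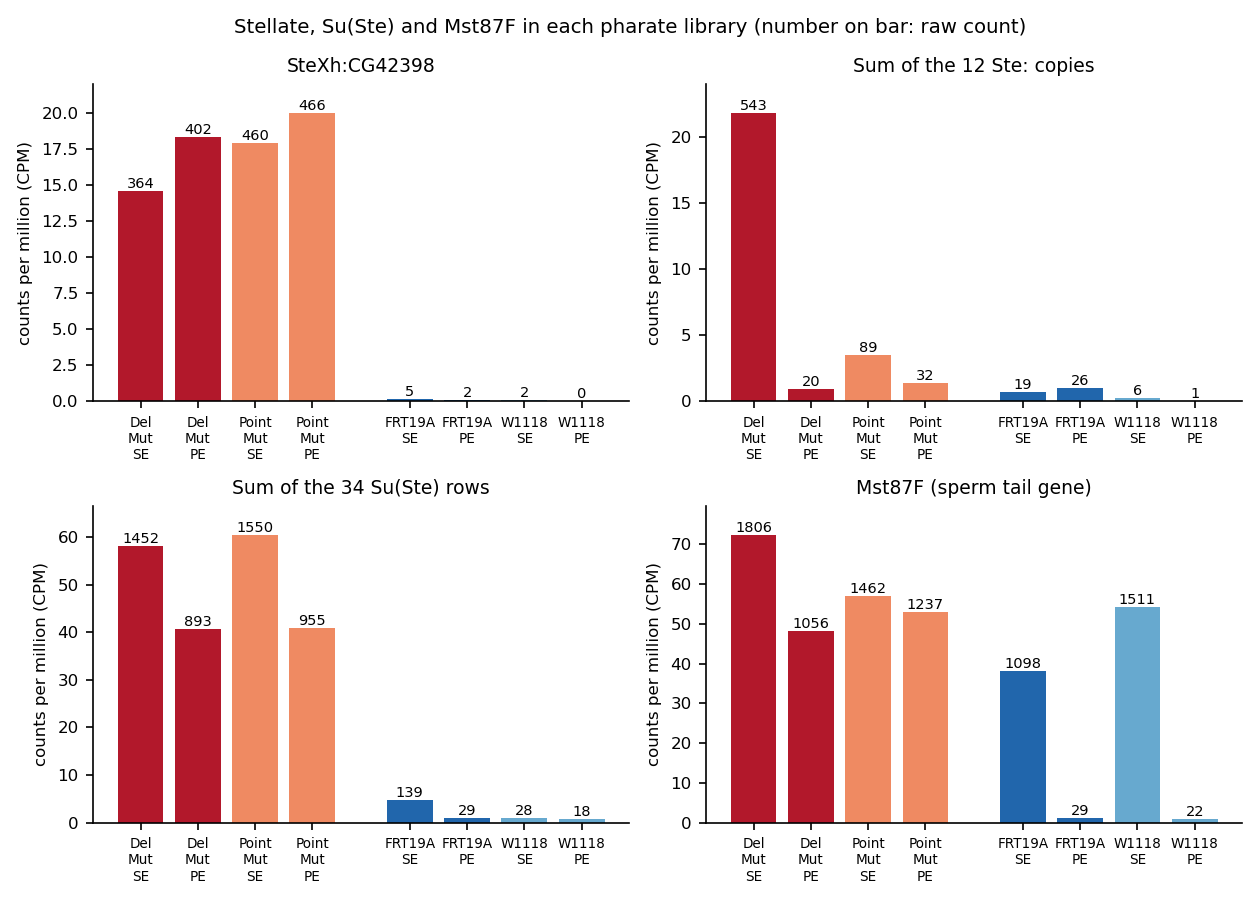
CPM of SteXh:CG42398, the 12 Ste: copies summed, the 34 Su(Ste) rows summed and Mst87F in each of the 8 pharate libraries, with Hinfp mutants on the left, controls on the right and the raw count on each bar. SteXh:CG42398 stands at 14.6 to 20.0 CPM in the mutants and at 0 to 0.174 CPM in the controls, the Ste: sum is led by the DelMut SE library, and Mst87F is high in both SE controls.

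The other 12 members form a tandem array on the X chromosome. In BDGP6 they run from X:14046772 to X:14061817 on the minus strand, over 15046 bp, with starts 1239 to 1270 bp apart. Each is annotated as protein-coding with 3 exons, none overlaps another gene, and no gene that is not a member lies within the array. Transcripts were 604 to 608 bases long in the deposited table, except Ste:CG33236, at the end with the highest coordinates, with 999 bases.

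RNA of the Ste: array was by far highest in 1 library. The 12 copies together had 543 and 20 counts in DelMut and 89 and 32 counts in PointMut, against 19 and 26 counts in FRT19A and 6 and 1 counts in W1118 (SE first, PE second). The DelMut SE library held most of the mutant counts, and the DelMut PE library lay below the FRT19A PE library, so the groups overlapped. The array averaged 6.88 ± 9.99 CPM in mutants and 0.471 ± 0.422 CPM in controls (SD, n = 4 each). That mutant SD exceeds its mean.

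Within the DelMut SE library all copies were counted at similar depth. Single copies had 31 to 62 counts there, with a median of 45. Ste:CG33244 and Ste:CG33247 had the most, 62 counts each, and Ste:CG33238 and Ste:CG33240 the fewest, 31 each. In deposited TPM, which divides by transcript length, the copies of that library ran from 3.96 to 7.93 with a median of 5.56. The PointMut SE library followed, with 2 to 15 counts a copy. In each of the other 6 libraries no copy had more than 8 counts. Of the 12 copies, 11 had no read in the W1118 PE library and 8 had none in the W1118 SE library.

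Single copies told little apart outside the SE mutant libraries. In CPM, every mutant library exceeded every control library for 4 of the 13 members, while this held for 9.28% of all 16524 rows (and the reverse for 9.37%). These members were SteXh:CG42398, Ste:CG33236, Ste:CG33237 and Ste:CG33247, so the array contributed 3 of its 12 copies. Ste:CG33247 had 62 and 4 counts in DelMut and 15 and 2 counts in PointMut, against 0 and 2 counts in FRT19A and 0 and 0 counts in W1118 (SE first, PE second). In CPM its lowest mutant library stood narrowly above its highest control library. In raw counts the lowest mutant and the highest control library tied for all 3 of these copies. They tied at 2 for Ste:CG33236, 3 for Ste:CG33237 and 2 for Ste:CG33247, so library depth alone separated them and nothing is read from the number of copies. Ste:CG33238 had 31 and 0 counts in DelMut and 10 and 0 counts in PointMut, against 1 and 1 counts in FRT19A and 0 and 0 counts in W1118. Its RNA was thus seen in the SE mutant libraries and in neither PE mutant library.

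**Figure D2:**
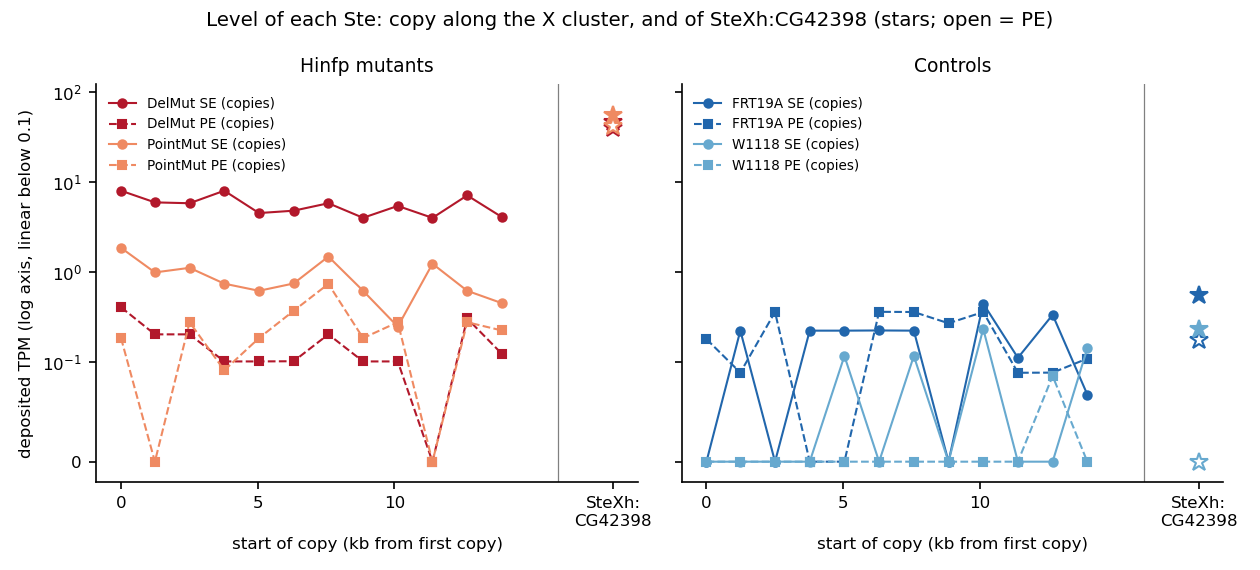
Deposited TPM of each Ste: copy by the distance of its start from the copy with the lowest coordinate (kb), with stars for SteXh:CG42398 (open stars are PE), in Hinfp mutants on the left and controls on the right, 1 line per library. The copies of the DelMut SE library lie at 3.96 to 7.93 TPM along the whole array, and SteXh:CG42398 lies at 39.9 to 55.6 TPM in the mutants and at 0 to 0.546 TPM in the controls.

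The makeup of Stellate RNA therefore differed between libraries. SteXh:CG42398 gave 40.1% of all Stellate counts in the DelMut SE library (exact 95% interval 36.9 to 43.4%). It gave 95.3% in the DelMut PE library, 83.8% in the PointMut SE library and 93.6% in the PointMut PE library. Its share in the controls was 20.8% and 7.14% in FRT19A and 25.0% and 0% in W1118, of at most 28 counts each. Per length, SteXh:CG42398 had 8.26 times the TPM of the median Ste: copy in the DelMut SE library and 75.5 times in the PointMut SE library. In the PE libraries this ratio was 357.4 for DelMut and 207.6 for PointMut, over median copies of at most 0.203 TPM. Ste12DOR, a Stellate-related gene that is not a member and was chosen after its values were seen, had 60 and 1 counts in DelMut and 9 and 0 counts in PointMut, against 5 and 1 counts in FRT19A and none in W1118. Like the array, it was highest in the DelMut SE library.

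All 13 members together had 907 and 422 counts in DelMut and 549 and 498 counts in PointMut, against 24 and 28 counts in FRT19A and 8 and 1 counts in W1118 (SE first, PE second). The groups did not overlap. The sum averaged 24.6 ± 7.91 CPM in mutants and 0.551 ± 0.467 CPM in controls (SD, n = 4 each). A fit across all genes with edgeR gave a log2 fold change of 5.34 (standard error, s.e., 0.86) for the sum. For the array alone it was 3.66 (s.e. 1.30), and 1.90 without the DelMut SE library.

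Of the 13 members, 4 had counts enough to pass the filter on low values, and all 4 had a positive log2 fold change in mutants over controls. The edgeR test, with Benjamini-Hochberg adjustment over 13244 genes, called 1448 genes or 10.9% of those tested, 4.59% higher and 6.34% lower. Of the members it called SteXh:CG42398 alone; the choice of the family used this contrast, so nothing is read from that count. SteXh:CG42398 had a log2 fold change of 7.63 (s.e. 0.74). Ste:CG33247 had 5.01 (s.e. 1.51), Ste:CG33238 4.02 (s.e. 1.73) and Ste:CG33241 3.16 (s.e. 1.14). A member that passed the filter did so through the libraries in which it was high. DESeq2 gave an adjusted p to 10 of the 13 members and called 4, adding Ste:CG33236, Ste:CG33241 and Ste:CG33247. It called 2729 of the 14433 genes with an adjusted p, or 18.9%. With the replicate number, which goes with the tag, as a block, edgeR called 1 member, SteXh:CG42398, among 31.5% of the 13244 genes. The same contrast chose the family, so nothing is read from these counts either.

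Testis RNA was the measure set beside Stellate in each library. Mst87F encodes a protein of the sperm tail and is made in the male germline. It had 1806 and 1056 counts in DelMut and 1462 and 1237 counts in PointMut, against 1098 and 29 counts in FRT19A and 1511 and 22 counts in W1118 (SE first, PE second). Every mutant library and both SE control libraries were thus high in Mst87F, and only the PE control libraries were low.

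In the SE libraries Mst87F and the testis list differed far less between mutants and controls than Stellate did. Mst87F was 1.40 times as high in mutants as in controls (95% counting interval 1.33 to 1.48), and the sum of 22 genes of spermatocytes and later stages was 1.29 times as high. The early germline list was 1.79 times as high and the Y-linked list 1.68 times, the FRT19A SE library being low in Y-linked genes. In the same libraries SteXh:CG42398 was 131.6 times as high in mutants as in controls (63.6 to 328.4). The array was 28.3 times as high (19.0 to 44.0). Most of its mutant counts came from the DelMut library, with 543 against 89 in the PointMut library. The W1118 SE library had 54.3 CPM of Mst87F and 2 reads of SteXh:CG42398, beside 48.2 to 72.4 CPM of Mst87F in the mutants. The part that germline RNA has in the SE difference was not tested.

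In the PE libraries Mst87F moved with Stellate. Mst87F was 52.7 times as high in mutants as in controls there (39.9 to 71.0), and SteXh:CG42398 was 508.5 times as high (140.3 to 4205). The testis list sum was 4.61 times as high, and the array 2.26 times (1.39 to 3.74). In the PE controls the testis list gene bol alone held 1160 of 2705 list counts in FRT19A and 1338 of 2435 in W1118. In the PE mutants bol had 1041 counts in DelMut and 1179 in PointMut. The part that testis RNA has in the PE difference was not tested.

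**Figure D3:**
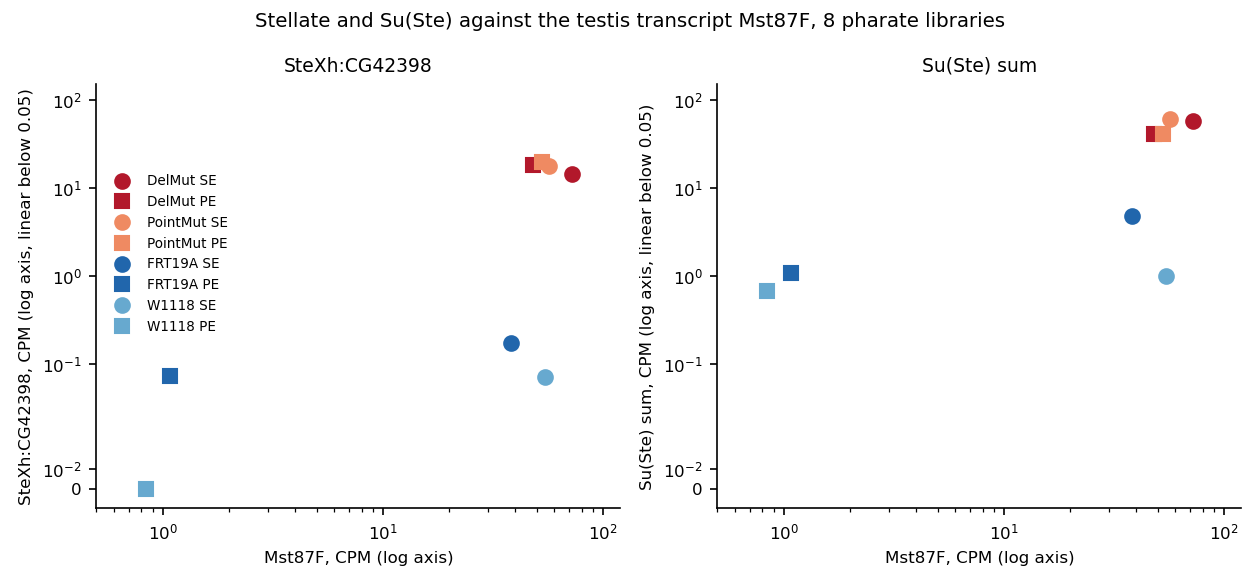
CPM of SteXh:CG42398 (left) and of the Su(Ste) sum (right) against CPM of Mst87F, both on log axes, 1 point per pharate library (circles SE, squares PE, red shades Hinfp mutants, blue shades controls). The SE controls, at 38.2 and 54.3 CPM of Mst87F, lie below the mutants at 48.2 to 72.4 CPM in both panels.

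Counts of SteXh:CG42398 per 100 counts of Mst87F were 20.2 and 38.1 in DelMut and 31.5 and 37.7 in PointMut, against 0.455 and 6.90 in FRT19A and 0.132 and 0 in W1118 (SE first, PE second). Each mutant library exceeded each control library in this ratio. For all Stellate rows the ratio was 50.2 and 40.0 in DelMut and 37.6 and 40.3 in PointMut, against 2.19 and 96.6 in FRT19A and 0.530 and 4.55 in W1118. The FRT19A PE library stood highest here, with 28 Stellate counts, 26 of them in the array, over 29 counts of Mst87F. The mean log2 ratio of the Stellate sum to Mst87F, with 0.5 added to each count, was higher in mutants than in controls by 2.97 over all libraries, by 5.28 in SE libraries and by 0.66 in PE libraries. It was 4.36 without the FRT19A PE library and 1.89 without the W1118 SE library. With the sum of the 22 testis genes in place of Mst87F the difference was 4.78 over all libraries, 5.40 in SE libraries and 4.16 in PE libraries. That sum holds bol, which made up much of it in the PE controls. In mutants over controls bol had a log2 fold change of 0.04 (s.e. 0.59), so the PE value depends on the marker chosen.

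Other germline markers were lowest in the PE controls as well. The 22 testis genes summed to 418.2 to 1126 CPM in mutants, against 576.9 and 925.9 CPM in the SE libraries of FRT19A and W1118 and 100.7 and 93.2 CPM in their PE libraries. The 9 Y-linked spermatocyte genes in the table, among them the dynein heavy chain genes kl-2 and kl-5, summed to 27.4 and 26.2 CPM in DelMut and 24.9 and 29.4 CPM in PointMut, against 6.92 and 1.08 CPM for FRT19A and 24.5 and 0.345 CPM for W1118 (SE first, PE second). The W1118 SE library was thus near the mutants. The 5 early germline genes summed to 5.57 to 9.70 CPM in mutants, against 3.20 and 6.40 CPM in the SE libraries of FRT19A and W1118 and 1.01 and 1.15 CPM in their PE libraries. None of the 22 testis, 5 early germline or 9 Y-linked genes was at 0 in all control libraries.

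Whether the mutant difference itself depended on the library tag was tested with the interaction term in edgeR. It called 804 of 13244 genes (6.07%, with 5.81% higher and 0.264% lower in PE) and 0 of the 4 members tested, of which 1, Ste:CG33247, had an unadjusted p under 0.05. SteXh:CG42398 had a PE minus SE difference in log2 fold change of 1.74 (s.e. 1.07, edgeR Benjamini-Hochberg adjusted p = 0.556). That difference was 0.81 without the W1118 PE library, 0.84 without the FRT19A SE library and 5.03 without the FRT19A PE library, and control counts of 0 to 5 limit it. Ste:CG33238 had -7.55 (s.e. 3.21), Ste:CG33247 -6.62 (s.e. 2.62) and Ste:CG33241 -2.90 (s.e. 1.97). These 3 copies passed the filter through the SE mutant libraries, where they were high, so their negative values are a description. Of the 22 testis genes, 10 were called, all with a larger mutant difference in PE libraries. Their list median was 3.72 beside 0.03 for all genes tested. Mst87F had an interaction of 5.08 (s.e. 0.27, edgeR Benjamini-Hochberg adjusted p = 0.00855).

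**Figure D4:**
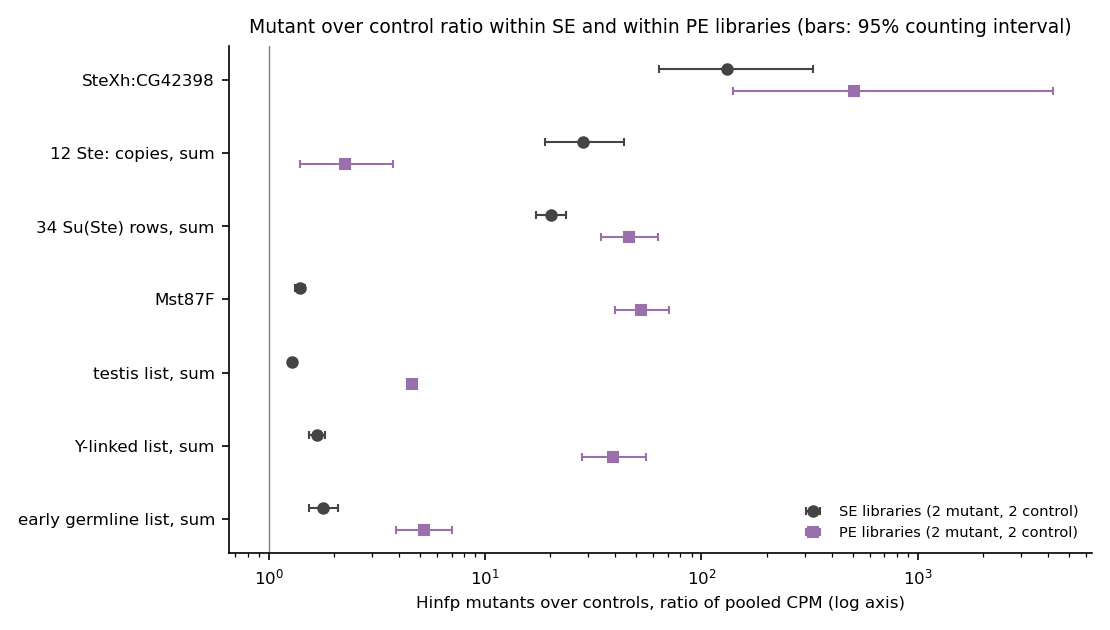
Ratio of pooled CPM, Hinfp mutants over controls, within the SE libraries (circles) and within the PE libraries (squares), on a log axis, with 95% counting intervals. In SE libraries SteXh:CG42398 lies at 131.6 and the Ste: sum at 28.3 while Mst87F lies at 1.40; in PE libraries Mst87F lies at 52.7 and the Ste: sum at 2.26.

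Each allele was set against each control strain. The comparisons share libraries, so their values are given side by side only. For DelMut the log2 fold change of SteXh:CG42398 was 6.84 (s.e. 0.95) over FRT19A and 8.70 (s.e. 1.05) over W1118. For PointMut it was 7.08 (s.e. 0.95) over FRT19A and 8.94 (s.e. 1.06) over W1118. With groups of 2 libraries edgeR called 0% of the 13244 genes in each of these 4 comparisons, with 1594 to 1949 genes at an unadjusted p under 0.05. With the replicate number as a block edgeR called SteXh:CG42398 in all 4. For DelMut this stood beside 11.3% of all genes over FRT19A and 6.83% over W1118, and for PointMut beside 8.35% over FRT19A and 5.69% over W1118. DESeq2 also called SteXh:CG42398 in all 4. It called 7.84% of genes for DelMut over FRT19A and 6.06% over W1118, and 7.68% for PointMut over FRT19A and 5.94% over W1118. The family was chosen by mutant against control values of these same libraries, so nothing is read from the calls of SteXh:CG42398.

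DelMut against PointMut, a comparison the choice of the family did not use, had a log2 difference of -0.24 (s.e. 0.72) for SteXh:CG42398, with an edgeR Benjamini-Hochberg adjusted p = 1. No gene was called by edgeR in this comparison (34 at an unadjusted p under 0.05), and DESeq2 called 8 (0.0484%), none a member. With the replicate number as a block edgeR called 0 genes as well. The 3 array copies tested had differences of 1.12 to 1.90, with standard errors of 1.41 to 2.34. By pooled counts the array was 6.27 times as high in DelMut as in PointMut in SE libraries (5.00 to 7.94) and 0.665 times in PE libraries (0.360 to 1.20), an interval that includes 1.

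W1118 had less Stellate RNA than FRT19A by count, but not by the test. SteXh:CG42398 had 2 and 0 counts in W1118 and 5 and 2 counts in FRT19A, a log2 difference of -1.86 (s.e. 0.94, edgeR Benjamini-Hochberg adjusted p = 1). The array had 6 and 1 counts in W1118 and 19 and 26 counts in FRT19A. The ratio was 0.326 in SE libraries (95% counting interval 0.107 to 0.850) and 0.0396 in PE libraries (0.000965 to 0.241). All 4 members tested had a negative difference, with a median of -2.86 beside -0.03 for all genes tested. Of all genes tested, 47.0% had a positive difference. The 4 members share reads, passed the filter through the mutant libraries and had 0 to 5 counts in each control library. Their signs and median are thus a description. No gene was called by edgeR between the control strains (606 at an unadjusted p under 0.05), and DESeq2 called 257 (1.93%), none a member. With the replicate number as a block edgeR called 1 gene, which was not a member.

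Su(Ste), the suppressor repeats, were higher in the mutants together with Stellate. The table held 34 Su(Ste) rows, 27 annotated on the Y chromosome and 7 on unplaced scaffolds. They summed to 1452 and 893 counts in DelMut and 1550 and 955 counts in PointMut, against 139 and 29 counts in FRT19A and 28 and 18 counts in W1118 (SE first, PE second). The groups did not overlap, at 50.1 ± 10.7 CPM in mutants and 1.90 ± 1.96 CPM in controls (SD, n = 4 each). Of the 34 rows, 26 had every mutant library above every control library in CPM, while this held for 9.28% of all 16524 rows. No read was seen in any control library for 10 of the 34. Among these, Su(Ste):CR41533 had only 5 to 16 counts in the mutant libraries. The share of such rows in the whole table was not computed, so nothing is read from the 10.

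Of 22 Su(Ste) rows tested, 17 rose and 0 fell (edgeR, adjusted by Benjamini-Hochberg), beside 4.59% higher and 6.34% lower among all genes tested. By DESeq2, which tested more rows, 26 rose, beside 18.9% of genes called in either direction. The list median log2 fold change was 4.82 beside -0.01 for all genes tested. Rows such as Su(Ste):CR42433 passed the filter through the mutant libraries, where they were high, and the list was chosen with earlier results known. These counts of calls, and the adjusted p given below for 1 row, are thus a description. Su(Ste):CR42418 held the most reads, with 634 and 329 counts in DelMut and 641 and 351 counts in PointMut, against 87 and 18 counts in FRT19A and 10 and 13 counts in W1118. Its log2 fold change was 4.02 (s.e. 0.76, edgeR Benjamini-Hochberg adjusted p = 0.0178). Su(Ste):CR42412 had 145 and 99 counts in DelMut and 150 and 117 counts in PointMut, against 1 and 0 counts in FRT19A and 1 and 0 counts in W1118. Su(Ste):CR42433 had 25 to 40 counts in mutants and 0 in every control library. Within SE libraries the Su(Ste) sum was 20.1 times as high in mutants as in controls (17.2 to 23.6), and within PE libraries 46.1 times (34.5 to 62.9). For the Su(Ste) sum the alleles were close, with a DelMut over PointMut ratio of 0.963 in SE libraries (0.896 to 1.04) and 0.994 in PE libraries (0.906 to 1.09). Whether the counting used strand is not given in the sources used here, so sense and antisense Su(Ste) RNA cannot be told apart, and reads that match both Su(Ste) and Stellate cannot be assigned.

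The genes of the piRNA pathway, which silences Stellate in the germline, were given from a list of 27, all of which were tested. Of these, 10 rose and 0 fell (edgeR, adjusted by Benjamini-Hochberg), beside 4.59% higher and 6.34% lower among all genes tested. This list was chosen with earlier results known, so these calls and the adjusted p-values below are a description. The list median log2 fold change was 0.87. AGO3, which slices RNA in the piRNA amplification cycle, had 1624 and 2312 counts in DelMut and 1317 and 1665 counts in PointMut, against 55 and 38 counts in FRT19A and 69 and 42 counts in W1118. Its groups were far apart, with a log2 fold change of 5.26 (s.e. 0.30, edgeR Benjamini-Hochberg adjusted p = 9.17e-04). Its partner slicer aub had a log2 fold change of 2.55 (s.e. 0.49, edgeR Benjamini-Hochberg adjusted p = 0.0192), with 275 to 358 counts in mutants and 26 to 112 in controls. The nuclear silencing protein gene piwi had 49 to 92 counts in mutants and 9 to 23 in controls (edgeR Benjamini-Hochberg adjusted p = 0.013). The others called were the helicase gene spn-E, the Tudor domain genes krimp, tapas and BoYb, and mael, squ and del, from 1.22 to 3.85. An abundant list gene, papi, was lower in mutants and not called, at -0.46 (s.e. 0.19, edgeR Benjamini-Hochberg adjusted p = 0.176). It had 1406 to 2047 counts in mutants and 2210 to 2899 in controls.

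The list for casein kinase 2, whose beta subunit Stellate resembles, held its subunits and genes named as interactors of its alpha subunit. Of 6 tested, 1 rose and 0 fell by edgeR, beside 4.59% higher and 6.34% lower among all genes tested. The list median log2 fold change was 0.30. CkIIalpha-i3, one of those named as interactors, rose by a log2 fold change of 0.90 (s.e. 0.20, edgeR Benjamini-Hochberg adjusted p = 0.0312). CkIIbeta, the regulatory subunit, had -0.41 (s.e. 0.48, edgeR Benjamini-Hochberg adjusted p = 0.64) and the catalytic CkIIalpha -0.41 (s.e. 0.17, adjusted p = 0.183). With the replicate block both subunit genes fell. CkIIbeta had a log2 fold change of -0.45 (s.e. 0.07, edgeR Benjamini-Hochberg adjusted p = 0.00596) and CkIIalpha -0.40 (s.e. 0.07, adjusted p = 0.00722). The block thus called 1 higher and 2 lower of the 6, beside 31.5% of all genes called in either direction. As the list was chosen with earlier results known, nothing is read from these counts. CkIIbeta2, which is known from testis, had 169 and 86 counts in DelMut and 100 and 99 counts in PointMut, against 81 and 2 counts in FRT19A and 117 and 1 counts in W1118. It followed Mst87F, high in both SE controls, with an interaction of 5.33 (s.e. 0.60, edgeR Benjamini-Hochberg adjusted p = 0.0121).

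The remaining marker lists place these values among tissues. Calls among all genes tested for mutants over controls were 10.9% by edgeR, 31.5% with the replicate block and 18.9% by DESeq2. These lists too were chosen with earlier results known, so nothing is read from their counts of calls. In mutants over controls, edgeR with Benjamini-Hochberg adjustment called 0 of the 22 testis genes (median log2 fold change 1.04, 1 at an unadjusted p under 0.05, 1 by DESeq2). It called 0 of 9 Y-linked spermatocyte genes (median 1.73, 2 at an unadjusted p under 0.05, 2 by DESeq2). With the replicate block, edgeR called 1 testis gene, topi, and 1 Y-linked gene, WDY, both higher. It called 0 of 10 accessory gland genes (median 0.24, 0 at an unadjusted p under 0.05, 0 by DESeq2). Of 4 early germline genes tested 1 rose, bam, which drives germ cells out of their dividing stage (log2 2.54, s.e. 0.61, edgeR Benjamini-Hochberg adjusted p = 0.0367). It had 17 and 26 counts in DelMut and 54 and 48 counts in PointMut, against 3 and 4 counts in FRT19A and 10 and 10 counts in W1118. The block added bgcn, and DESeq2 also called 2 early germline genes. Of 9 midgut genes, Myo31DF and Amy-p rose and the gut hormone gene Tk fell (median -0.32); the block added nub as higher and NPF and pros as lower. Of 7 Malpighian tubule genes, Uro and Oatp58Db rose and Irk3 fell (median -0.26). Markers of the labelled tissue were present in every pharate library, with 16529 to 72386 counts of the midgut trypsin gene alphaTry and 11879 to 26135 counts of the tubule transporter gene Oatp58Dc.

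The genes most like the Stellate sum over the 8 libraries were CG3618 (Pearson r 0.989 of log2 CPM), piwi (0.986), the proteasome regulator gene PI31 (0.984), CG6271 (0.983) and PGRP-LA (0.983), a peptidoglycan recognition protein gene. They were taken from 11308 genes, and both values of a pair come from 1 library with its depth and tag, so these values are a description. CG3618 had 354 to 431 counts in mutants and 66 to 139 in controls. PI31 differed far less, with 1128 to 1421 counts in mutants and 845 to 1326 in controls. Of the 10 annotated genes and insertions nearest to the array, 4 were in the table, 3 of them tRNA genes and 1 a noncoding RNA gene, and none had more than 19 counts in any library. No such neighbour was annotated on the scaffold of SteXh:CG42398.

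The adult intestines had nearly no Stellate RNA in the 2 rows at hand. Ste:CG33242 had 0 counts with Hinfp overexpressed, 0 with His1 overexpressed, 3 in the Hinfp2 mutant and 0 in FRT19A. Ste:CG33236 had 0 counts in either rescue, 1 in the Hinfp2 mutant and 1 in FRT19A. The rows together stood at 0.222 CPM in the Hinfp2 mutant (exact 95% Poisson interval 0.0605 to 0.569) and 0.0493 CPM in FRT19A (0.00125 to 0.275). In the rescues, 0 counts allow up to 0.167 CPM with Hinfp and up to 0.165 CPM with His1 (3 counts of the library). The intervals of all genotypes overlap, and with 1 library per genotype there was no test. In the pharate table these 2 rows had 89 and 3 counts in DelMut and 12 and 8 counts in PointMut, against 3 and 6 counts in FRT19A and 2 and 0 counts in W1118 (SE first, PE second). SteXh:CG42398 and the other 10 array copies had no row in the adult table. No row of the adult table was at 0 in all 4 libraries, so a gene without reads may have no row. Whether these members had reads in adults cannot be told.

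The suppressor repeats and testis RNA were high in the adult mutant. The 14 Su(Ste) rows of the adult table summed to 0 counts with Hinfp overexpressed, 14 with His1 overexpressed, 148 in the Hinfp2 mutant and 3 in FRT19A. In the mutant this was 8.22 CPM (6.95 to 9.66), and the ratio of the mutant to FRT19A was 55.5 (18.6 to 272.4). The ratio of the His1 rescue to the mutant was 0.0935 (0.0499 to 0.162). Mst87F had 3 counts in each rescue, 2643 in the mutant and 7 in FRT19A. Its 146.8 CPM in the adult mutant stood beside 48.2 to 72.4 CPM in the pharate mutants, in tables the authors made separately. Su(Ste) counts per 100 counts of Mst87F were 5.60 over 14 rows in the adult mutant and 77.2 to 106.0 over 34 rows in the pharate mutants. These ratios are not like for like, as Su(Ste):CR42418, the row with the most pharate reads, had no adult row. The Y-linked list summed to 11 counts with Hinfp overexpressed, 56 with His1 overexpressed, 1149 in the mutant and 7 in FRT19A. Testis RNA and Su(Ste) were both highest in the adult mutant. Elsewhere counts were low, and the His1 rescue had 14 of Su(Ste), 3 of Mst87F and 56 of the Y-linked list. In the same order, the Hinfp rescue had 0, 3 and 11 counts, and FRT19A had 3, 7 and 7. The part that testis RNA has in the Su(Ste) difference was not tested.

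Hinfp had 28734 counts in the Hinfp rescue, 114 in the His1 rescue, 95 in the mutant and 244 in FRT19A, which fits the labels of the Hinfp rescue. The piRNA pathway list was at 333.0 CPM with Hinfp overexpressed, 326.0 with His1 overexpressed, 612.6 in the mutant and 258.2 in FRT19A. The casein kinase 2 list was at 269.5 CPM with Hinfp overexpressed, 277.8 with His1 overexpressed, 242.6 in the mutant and 303.2 in FRT19A.

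**Figure D5:**
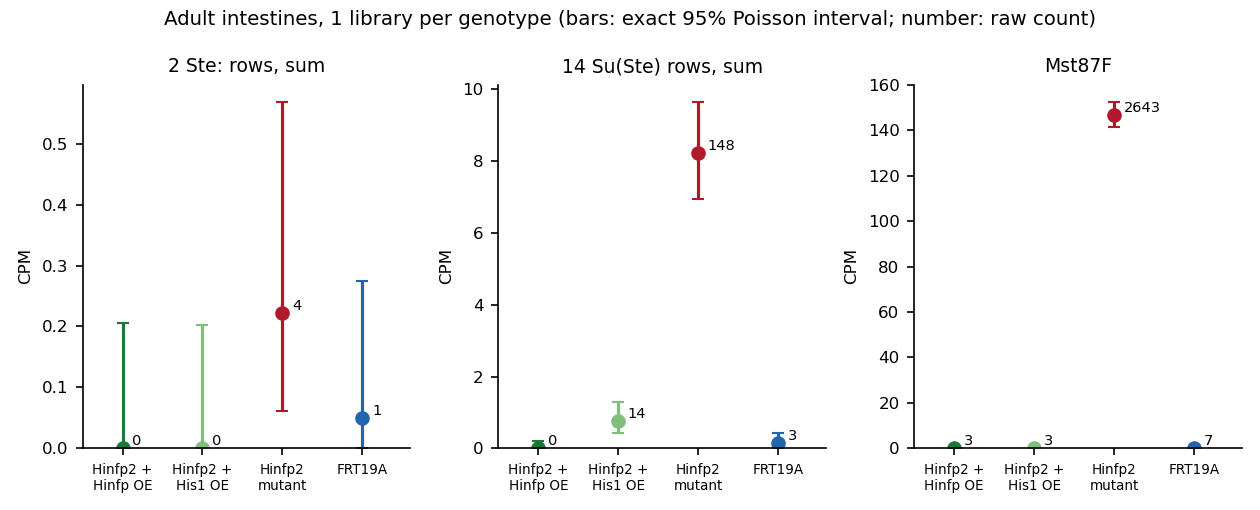
CPM of the 2 Ste: rows summed, the 14 Su(Ste) rows summed and Mst87F in the adult intestines, 1 library per genotype, with exact 95% Poisson intervals as bars and the raw count beside each point. The Hinfp2 mutant is highest in each panel, at 4, 148 and 2643 counts, and the intervals of the Ste: rows overlap.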

How the data were processed

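RNA of 8 pharate and 4 adult gut samples was analysed, grouped by the labels. The pharate and adult tables hold the authors' deposited gene counts, used without change; STAR 2.5.3a and featureCounts 1.5.2 (pharate) and 1.6.2 (adult) are named per the submitters' processing notes. TPM of the pharate genes, as the authors deposited it, was used only to compare levels between genes. The sources used here do not give the strand setting or the handling of reads matching several places. Another 112 columns of per-sample values were not used. The SE and PE tags are not spelled out, and the labels describe both ribosomal RNA depletion and poly-A selection.

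The test on counts was edgeR's two-sided quasi-likelihood test (edgeR 4.0.16, R 4.3.3). Genes passed filterByExpr at a minimum count of 10, scaling was by TMM, and p-values were adjusted by Benjamini-Hochberg over all 13244 genes, with calls at 0.05. The main fit had 2 classes; single groups shared 1 fit of 4 groups. Standard errors (s.e.) of log2 fold changes are the fold change over the square root of F. The fit was checked on simulated data. Intervals of counts and ratios are exact 95% intervals and, like the limit of 3 counts for a value of 0, cover counting error only. Coordinates and exons come from Ensembl release 115 of BDGP6, and 16403 table rows matched a symbol.

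Replicate numbers go with the SE and PE tags in the titles. Deviations of same-numbered libraries correlated at 0.651 to 0.851 over 6 pairs of groups, so the numbers pair the libraries. The fit with that block was an alternative, as were DESeq2 1.42.0, other scaling and filters, single tags and leaving out each library. Except in the interaction fit, which holds the tag, standard errors and adjusted p-values come from fits without that block unless it is named.

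Members and gene lists were chosen with earlier results of these data known. Lists were Su(Ste), casein kinase 2, piRNA pathway, testis, early germline, Y-linked spermatocyte, accessory gland, midgut and Malpighian tubule genes. Named genes were all members, Mst87F, Hinfp, list genes that passed the test or were the 2 most abundant, array neighbours and the 5 genes most correlated with the Stellate sum among genes with a mean log2 CPM (prior count 2) of at least 0; of long lists only some are printed. The list symbols nos, Pp1-Y1, Pprs, Mex1 and Urate matched no row.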

Additional observations from a re-analysis of the deposited data

Results flagged for a closer look

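In groups of 4 libraries, a value was singled out when its gap to the nearest other, divided by the group's range, passed Dixon's 95% critical value. Chance passes about 1 in 20 groups of normally distributed values, a rate that need not hold for low counts. Here 15 of 30 groups passed. The copies share reads, so these groups are not independent.

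The DelMut SE library stood apart from the other 3 mutant libraries in 11 of them. The gap ratio was 0.928 for Ste:CG33236, 0.968 for Ste:CG33237, 0.949 for Ste:CG33239, 0.875 for Ste:CG33240, 0.869 for Ste:CG33242, 0.89 for Ste:CG33243, 0.922 for Ste:CG33244, 0.848 for Ste:CG33245 and 0.831 for Ste:CG33246. It was 0.877 for the array sum and 0.873 for the sum of all members. SteXh:CG42398, lowest in that library, was not singled out. The DelMut SE library also had the highest sum of testis genes, at 1126 CPM, and the lowest sum of accessory gland genes among the mutants, at 1.48 CPM; their part in the array's level was not tested.

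The other 4 were control groups with reads in 1 library and none in the other 3, each with a ratio of 1.0. They were Ste:CG33240 with 3 counts, Ste:CG33245 with 4 and Ste:CG33247 with 2 in the FRT19A PE library, and Ste:CG33244 with 2 in the FRT19A SE library. At counts this low, sampling alone can leave the other libraries at 0.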

How the results depend on the processing

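SteXh:CG42398 had a positive log2 fold change in mutants over controls in every setting run, from 6.94 in SE libraries alone to 8.70 in PE libraries alone, and the Stellate sum from 4.96 to 5.92. In SE libraries alone edgeR called 0 of 13145 genes (3091 at an unadjusted p under 0.05) and so 0 members. DESeq2 called 4 members in mutants over controls, among 2729 genes, and gave an adjusted p to 10 of the 13; the edgeR block called 1 member among 4177 genes. Each allele against each control strain had 0 members called. With the replicate block, which goes with the tag, it was 1 in each of the 4 comparisons, and 1 with DESeq2 as well. The block changed no other call of a member. It moved the genes called from 1 to 3 in the casein kinase 2 list, 3 to 6 in midgut and 1 to 2 in early germline. Both the testis and Y-linked lists went from 0 to 1, and DESeq2 gave 26 Su(Ste) rows in place of 17. Among all genes tested, calls went from 10.9% to 31.5% with the block and to 18.9% with DESeq2. The array summed apart gave 3.66, between 1.90 and 4.36 without single libraries, and Ste:CG33238 turned to -2.28 in PE libraries alone, where its counts were 0 and 0 in mutants and 1 and 0 in controls. The log2 ratio of the Stellate sum to Mst87F, higher in mutants by 2.97, was 5.28 in SE and 0.66 in PE libraries, 4.78 with the testis list in place of Mst87F (5.40 in SE and 4.16 in PE libraries), and 1.89 to 4.36 without single libraries. Leaving out single libraries kept the members called at 1 to 1 in mutants over controls and at 0 to 0 in the other comparisons. With TMM scaling the adult mutant's Ste: rows were at 0.198 CPM in place of 0.222. Control counts of 0 to 5 per library limit every fold change of SteXh:CG42398, and 1 library per adult genotype allows no test.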
